A study of Mus musculus with 5 samples.

Results

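The 41 genes described here encode the factors that copy DNA: the proteins that license origins, the replicative helicase and its activators, the polymerases with their clamp and clamp loader, the enzymes that finish Okazaki fragments, those that supply deoxynucleotides, and the chromatin and methylation factors that act at the fork. They were chosen by gene symbol from known function, and each was represented by its transcript with the highest mean over the libraries. All 41 were present among the 22098 symbols (26531 transcripts) of the table, and 10 had more than 1 transcript. Transcript levels had been measured in 5 RNA-seq libraries of Hardy fraction A cells of C57BL/6 mice, sorted from marrow at 6 to 7 weeks of age with lineage-positive cells left in. The groups were 1 library labelled Ikaros_ZnF4-/- (dF4), 2 labelled Ikaros_ZnF1-/- (dF1) and 2 from wild-type mice (wt), which asks what zinc fingers 4 and 1 of the transcription factor Ikaros contribute. No group was treated. The submitters describe the dF1 libraries as biological replicates and the dF4 library as one of low coverage. The sources used here do not say how the alleles were made, whether mice were pooled or whether each wt library had its own mouse. A p-value below therefore reflects the spread between libraries alone, which may be technical for wt.

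Replication starts in G1, when the origin recognition complex, Cdc6 and Cdt1 load the MCM helicase onto DNA. At the onset of S phase Cdc45 and the GINS complex join the helicase and switch it on, primase with polymerase alpha lays down primers, and polymerases delta and epsilon extend them behind the ring-shaped clamp PCNA. Many of these genes are transcribed together at the G1 to S transition under E2F factors, so that their RNA is a common readout of how many cells in a population are dividing. Early lymphoid and myeloid precursors in the marrow divide actively, while most plasmacytoid dendritic cells and mature NK cells there do not.

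Levels were deposited as RPKM, that is reads per kilobase of transcript, corrected for library size. They summed to 345450 in the dF4 library, to 298860 and 307910 in the dF1 libraries and to 306100 and 286080 in the wt libraries. The dF4 library held about 595900 reads, estimated from its low values, and the depth of the other 4 is unknown. Ikzf1, which encodes Ikaros, stood at 237.7 RPKM in dF4, at 182.2 and 182.1 RPKM in dF1 and at 175.8 and 141.1 RPKM in wt, and a value over a whole transcript does not check the loss of 1 finger. Although the labels call the cells sorted proB cells, the dF1 and wt libraries carried high levels of plasmacytoid dendritic cell genes: Siglech was at 5.5 RPKM in dF4, at 785.2 and 807.3 RPKM in dF1 and at 936.2 and 838.4 RPKM in wt. The dF4 library thus stood apart from the other 4 in its marker genes, and it has no replicate.

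Promoters were examined first, because E2F sites are the best known shared feature of replication genes. RefSeq promoter windows (GRCm38.p6, 250 bases before to 50 after a gene's first listed start) could be matched to 35 of the 41 genes. An E2F site, taken as TTTCCCGC, TTTCGCGC, TTTGCCGC or TTTGGCGC on either strand, was found in 11 of the 35 windows (31.4%), against 2.32% of all 27025 promoter windows and 4.38% of the 7920 windows of genes that entered the test between dF1 and wt. The 11 genes were Mcm3, Mcm5, Mcm6, Mcm7, Cdt1, Cdc6, Orc1, Rfc3, Pold1, Pola1 and Pole2. The CCAAT box (CCAAT, either strand) was found in 62.9% of the members' windows, against 37.9% of all windows and 39.3% of those of tested genes. The letters TGGGAA, a core of the sequences that Ikaros binds, were found in 40% of the members' windows, against 25.5% and 22.7%. The CHR element of mitotic genes (TTTGAA) was found in 11.4% of the members' windows, against 18.1% and 11.7%. These are matches of letters, and no binding was measured here. The windows of Cdt1, which differed most in dF4, and of the MCM genes with E2F matches are shown because 4 of the 5 helicase subunits with a window (Mcm4 had none) hold the site. They lie at chr8:122567765-122568064 (plus strand) for Cdt1, chr1:20820263-20820562 (minus) for Mcm3, chr8:75109259-75109558 (plus) for Mcm5, chr1:128359656-128359955 (minus) for Mcm6 and chr5:138171834-138172133 (minus) for Mcm7, and capitals mark the E2F matches.
Cdt1: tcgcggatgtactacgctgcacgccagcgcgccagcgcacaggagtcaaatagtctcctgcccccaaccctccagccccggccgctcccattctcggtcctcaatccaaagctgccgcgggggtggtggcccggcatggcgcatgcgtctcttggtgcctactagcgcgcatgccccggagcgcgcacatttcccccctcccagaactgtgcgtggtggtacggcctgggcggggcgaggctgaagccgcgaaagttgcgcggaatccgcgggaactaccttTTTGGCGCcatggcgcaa
Mcm3: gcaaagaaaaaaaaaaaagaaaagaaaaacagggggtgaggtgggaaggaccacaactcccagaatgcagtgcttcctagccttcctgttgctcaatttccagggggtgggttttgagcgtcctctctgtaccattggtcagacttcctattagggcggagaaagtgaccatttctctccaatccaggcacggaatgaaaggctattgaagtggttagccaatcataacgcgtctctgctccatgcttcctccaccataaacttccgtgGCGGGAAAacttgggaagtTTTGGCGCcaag
Mcm5: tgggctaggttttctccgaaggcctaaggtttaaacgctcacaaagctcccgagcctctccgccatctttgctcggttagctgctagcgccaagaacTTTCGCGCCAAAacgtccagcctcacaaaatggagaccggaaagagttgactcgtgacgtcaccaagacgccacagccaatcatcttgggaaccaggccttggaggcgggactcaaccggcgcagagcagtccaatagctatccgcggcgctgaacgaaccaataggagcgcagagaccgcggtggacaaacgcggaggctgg
Mcm6: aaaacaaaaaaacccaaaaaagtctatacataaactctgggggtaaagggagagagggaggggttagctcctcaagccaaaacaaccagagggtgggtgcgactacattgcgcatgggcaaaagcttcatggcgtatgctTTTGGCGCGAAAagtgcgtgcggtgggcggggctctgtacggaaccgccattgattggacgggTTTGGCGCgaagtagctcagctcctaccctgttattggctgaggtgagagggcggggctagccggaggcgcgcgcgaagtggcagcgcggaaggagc
Mcm7: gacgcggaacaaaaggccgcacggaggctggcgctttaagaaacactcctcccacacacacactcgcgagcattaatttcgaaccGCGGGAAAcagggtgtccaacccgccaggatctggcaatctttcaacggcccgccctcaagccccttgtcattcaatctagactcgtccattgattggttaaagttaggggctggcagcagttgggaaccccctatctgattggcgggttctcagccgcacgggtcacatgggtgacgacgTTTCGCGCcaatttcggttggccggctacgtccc

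Counted from 1 at the transcription start, with -1 the base before it, the match in Cdt1 began at 33 and those in Mcm3 at 20 and 39. The matches in Mcm7 began at -165 and 17. In Mcm5 they began at -153 and -149, and in Mcm6 at -110, -106 and -47, so that the upstream pair in each of these windows overlaps on opposite strands. Among members with a mean of 5 RPKM or more, the median dF4 minus wt difference of log2(RPKM + 1) was 0.41 for the 9 with an E2F match and 0.35 for the 23 without. The medians of the dF1 minus wt difference were 0.059 and -0.026.

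The replication genes together took 0.392% of all RPKM in dF4, 0.328% and 0.358% in dF1 and 0.348% and 0.347% in wt. Their median level was 26.8 RPKM in dF4, 16.6 and 18.9 RPKM in dF1 and 17.7 and 16.8 RPKM in wt. In every library Mcm6 was the highest of the 41. The lowest was Pole2 in dF4, at 3.9 RPKM, and Orc1 in each dF1 and wt library, at 1.4 to 2.0 RPKM. The order of levels was shared closely among the dF1 and wt libraries, where Pearson's r of log2(RPKM + 1) over the 41 genes lay between 0.979 and 0.992 for pairs of different genotype, at 0.986 for the dF1 pair and at 0.984 for the wt pair. With the dF4 library r lay between 0.860 and 0.884, and over all tested transcripts it lay between 0.740 and 0.774. These r describe libraries scaled in the same way, and the genes are not independent replicates.

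**Figure D1:**
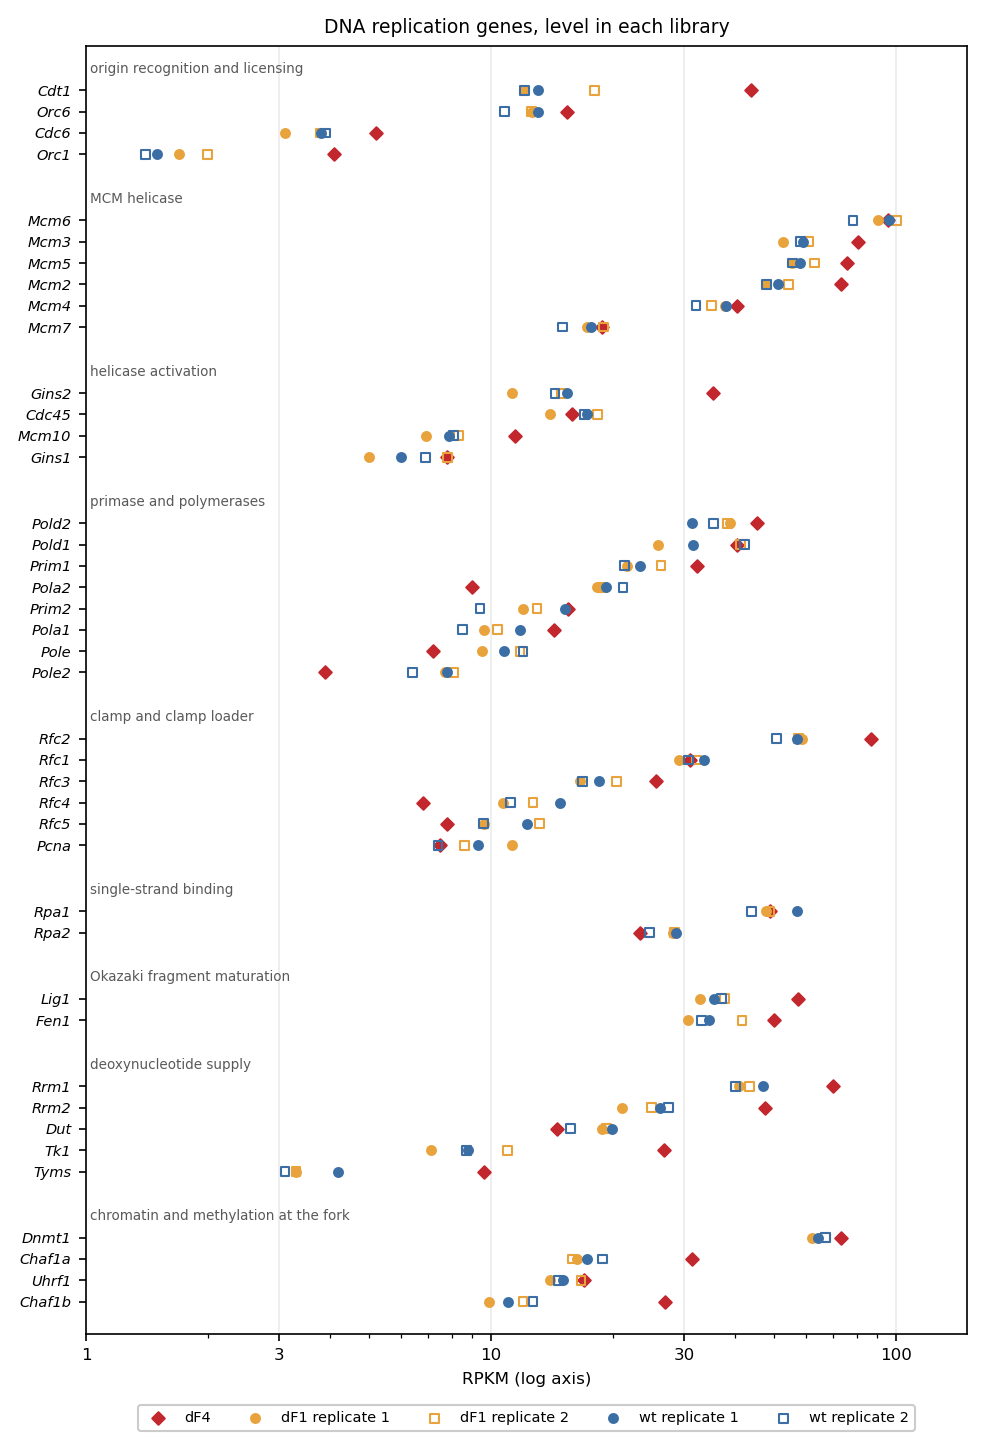
Level of each of the 41 replication genes in RPKM (log axis) in the dF4 library (diamonds), the dF1 libraries (orange) and the wt libraries (blue), with 1 point per library and genes ordered by role and mean level. For example, the dF4 points lie to the right of the other 4 for Cdt1, Gins2, Rrm2, Tk1, Tyms, Chaf1a and Chaf1b and to the left of them for Pola2, Pole, Pole2, Rfc4 and Rfc5.

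Close copies in the genome limit some of these levels, because how reads were shared among copies, and whether strand was used, are not given. Comparing the members' transcripts with all GENCODE M21 transcripts (BLAST hits of at least 90% identity and 100 bases) found no hit outside the own gene for 21 members. Another 15 had hits over less than 50% of their length. The 5 with more were Fen1 (88.8%, an antisense transcript, Gm10143), Mcm7 (72.8%, the processed pseudogene Gm5487), Mcm4 (71.2%, the processed pseudogene Gm9577), Gins2 (70.7%, the gene Gse1, over a transcript model longer than the one in the table) and Pcna (51.4%, the processed pseudogene Pcna-ps2). The levels of these 5 genes are therefore uncertain, and so is the rank of Mcm7 and Pcna among their partners.

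Between dF1 and wt the replication genes showed small differences in both directions, and none passed the test. Of the 41 genes, 21 were higher and 20 lower in dF1 than in wt, and the median difference of log2(RPKM + 1) was 0.016, against 0.0072 over all 12215 transcripts tested. The count was 0 at an adjusted p of 0.05 in limma (moderated test of the 2 dF1 against the 2 wt libraries, Benjamini-Hochberg over all 12215 transcripts), where 0% of all transcripts passed. None of the 41 had an unadjusted p under 0.05, which 7.16% of all transcripts had (875). The lowest adjusted p of a replication gene in limma was 0.776, for Pold2. Both dF1 libraries lay above both wt libraries for 3 genes (Orc1, Pold2 and Rfc2), where 16.8% of all transcripts did, and below both for 3 (Pola2, Rrm2 and Chaf1a), where 17.9% did.

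The size of difference that these libraries allow can be given for each gene. The 95% confidence interval of the dF1 minus wt difference lay within 1 log2 unit of 0 for all 41 genes and within 0.5 for 20 of them. Its half-width had a median of 0.39, and was narrowest for Dnmt1 (0.29) and widest for Pold1 (0.68). For 34 of the 41 genes the gap between the 2 libraries of a genotype, averaged over dF1 and wt, exceeded the difference between the genotypes. A gap between single libraries tends to exceed a difference between means of 2 libraries. The share over all transcripts was not computed, so this count is not a trait of the replication genes. In dF1, replicate 2 was higher than replicate 1 for 34 of the 41 genes, with a median difference of 0.18, against 0.053 over all transcripts. In wt, replicate 2 was lower than replicate 1 for 29 genes, with a median difference of -0.094, against -0.080 over all transcripts. The direction of the whole set followed single libraries: without dF1 replicate 1, 34 genes were higher and 7 lower, and without dF1 replicate 2, 12 were higher and 29 lower. Without wt replicate 1, 26 were higher and 15 lower, and without wt replicate 2, 15 were higher and 26 lower.

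Marker genes of other cell types also differed between the libraries of 1 genotype. The summed level of the 16 neutrophil precursor markers was 223.7 and 857.6 RPKM in the dF1 libraries and 410.5 and 1084.5 RPKM in the wt libraries, so that replicate 2 was higher in both genotypes. The summed level of the NK cell markers was 2446.8 and 2175 RPKM in dF1 and 2185.9 and 972.8 RPKM in wt. The stem and multipotent progenitor markers instead differed little in sum within a genotype and lay lower in dF1. They summed to 300 and 285.8 RPKM in dF1 and to 417.8 and 399.4 RPKM in wt. Of 9 tested, 8 were lower in dF1 and 1 higher, and none passed limma's test. Both dF1 libraries lay below both wt libraries for 6, where 17.9% of all transcripts did. They lay above both for 1, where 16.8% did. The part of these cell types in the differences of the replication genes was not tested.

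**Figure D2:**
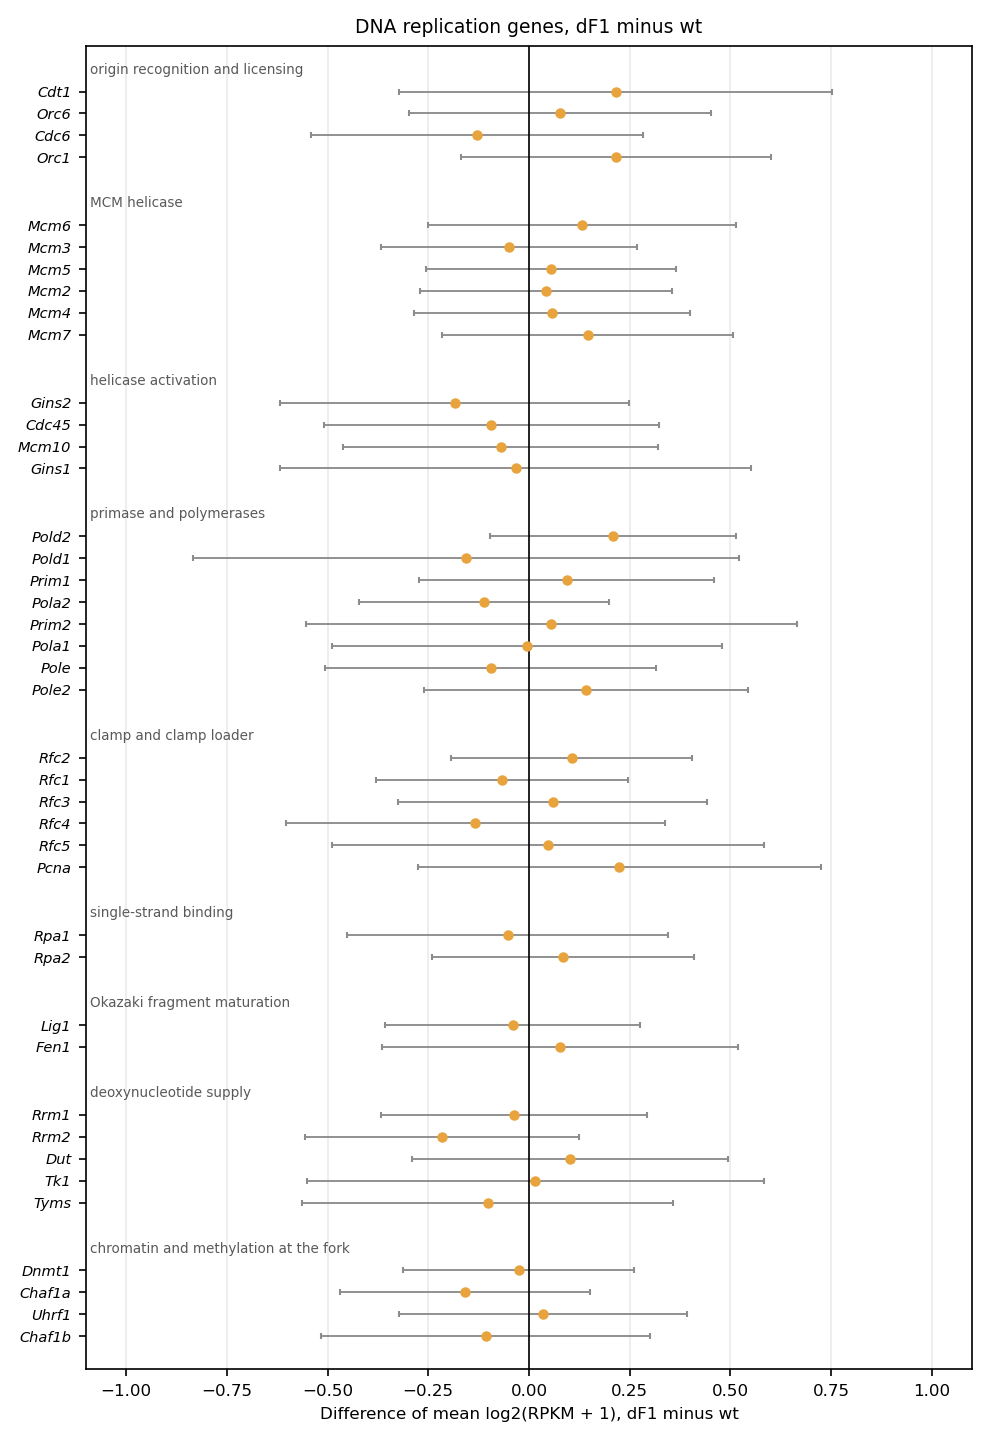
Difference of mean log2(RPKM + 1) between dF1 and wt for each of the 41 replication genes (points, 2 libraries a group) with its 95% confidence interval from limma (bars). Every interval includes 0, and the points lie between -0.22 (Rrm2) and 0.22 (Pcna).

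In the dF4 library the replication genes were spread more widely, with more of them above the other libraries than below. With 1 library there is no test, and a gene was counted as different only by size: dF4 outside both libraries of the other genotype, at least 1 log2 unit from their mean, those 2 libraries within 0.5 of each other, and an average over the 5 libraries of 5 RPKM or more. Of the 37 replication genes that could be counted against wt, 4 were higher in dF4 (Cdt1, Tk1, Gins2 and Chaf1b), where 7.75% of 7867 transcripts were, and 1 was lower (Pola2), where 10.4% were. Against dF1, of 34 that could be counted, 3 were higher (Gins2, Rrm2 and Chaf1b), where 7.21% of 8196 transcripts were, and 0 were lower, where 10.3% were. The counts of higher genes are near the background and those of lower genes are under it. The median difference was 0.35 for dF4 minus wt and 0.28 for dF4 minus dF1 over the 38 genes with an average of 5 RPKM or more, against 0.0032 and -0.022 over all 8759 such transcripts. The comparisons share the dF4 library and are given side by side only.

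Set against all other libraries at once, 23 of the 38 genes (60.5%) lay above the other 4 in dF4, where 38.6% of 8759 transcripts did. Below them lay 7 (18.4%), where 39% of transcripts did. Counting error in dF4 is large, since the 41 genes had 3 (Gins1) to 236 (Dnmt1) estimated reads there, with a median of 31. The exact 95% Poisson interval of the dF4 level, which covers counting error only, lay above all other 4 libraries for 12 of the 38 genes, where 16% of transcripts did. It lay below them for 1 gene (Pola2), where 14.1% did. The 12 were Cdt1, Mcm2, Mcm3, Mcm5, Gins2, Rfc2, Lig1, Rrm1, Rrm2, Tk1, Chaf1a and Chaf1b, and Tyms, whose mean was under 5 RPKM, made 13 of all 41. For the other 27 of the 41 genes the counting interval overlapped the range of the other libraries, so that a difference from all of them was not detectable at this depth. Against wt alone, the counting interval of Fen1 and Orc1 lay above both libraries and that of Pole below both.

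Marker genes of other cell types also differed in the dF4 library, though these lists were chosen with earlier results of these data known. The neutrophil precursor markers were higher in dF4 than in all other libraries for 16 of 16 genes, where 38.6% of all transcripts were. They summed to 34092 RPKM in dF4, to 223.7 and 857.6 RPKM in dF1 and to 410.5 and 1084.5 RPKM in wt, with none at 0. The plasmacytoid dendritic cell markers were lower in dF4 than in all other libraries for 18 of 18 genes, where 39% of all transcripts were. Their sums were 941.8 RPKM in dF4, 5255.1 and 5815.3 RPKM in dF1 and 5870.3 and 6765.1 RPKM in wt. Of those 18, Cox6a2, Cd300c, Klk1, Klk1b27 and Havcr1 were listed at 0 in dF4. The early B lineage markers, of which Vpreb2 was listed at 0 in dF4, summed to 1461.7 RPKM in dF4, to 494.2 and 490.5 RPKM in dF1 and to 661.4 and 445 RPKM in wt. The erythroid markers summed to 1147.3 RPKM in dF4, to 139.3 and 160.3 RPKM in dF1 and to 173.7 and 229.2 RPKM in wt. In such bulk samples, a larger share of dividing cells and more RNA per cell cannot be told apart, and the part of these cell types in the dF4 values was not tested.

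**Figure D3:**
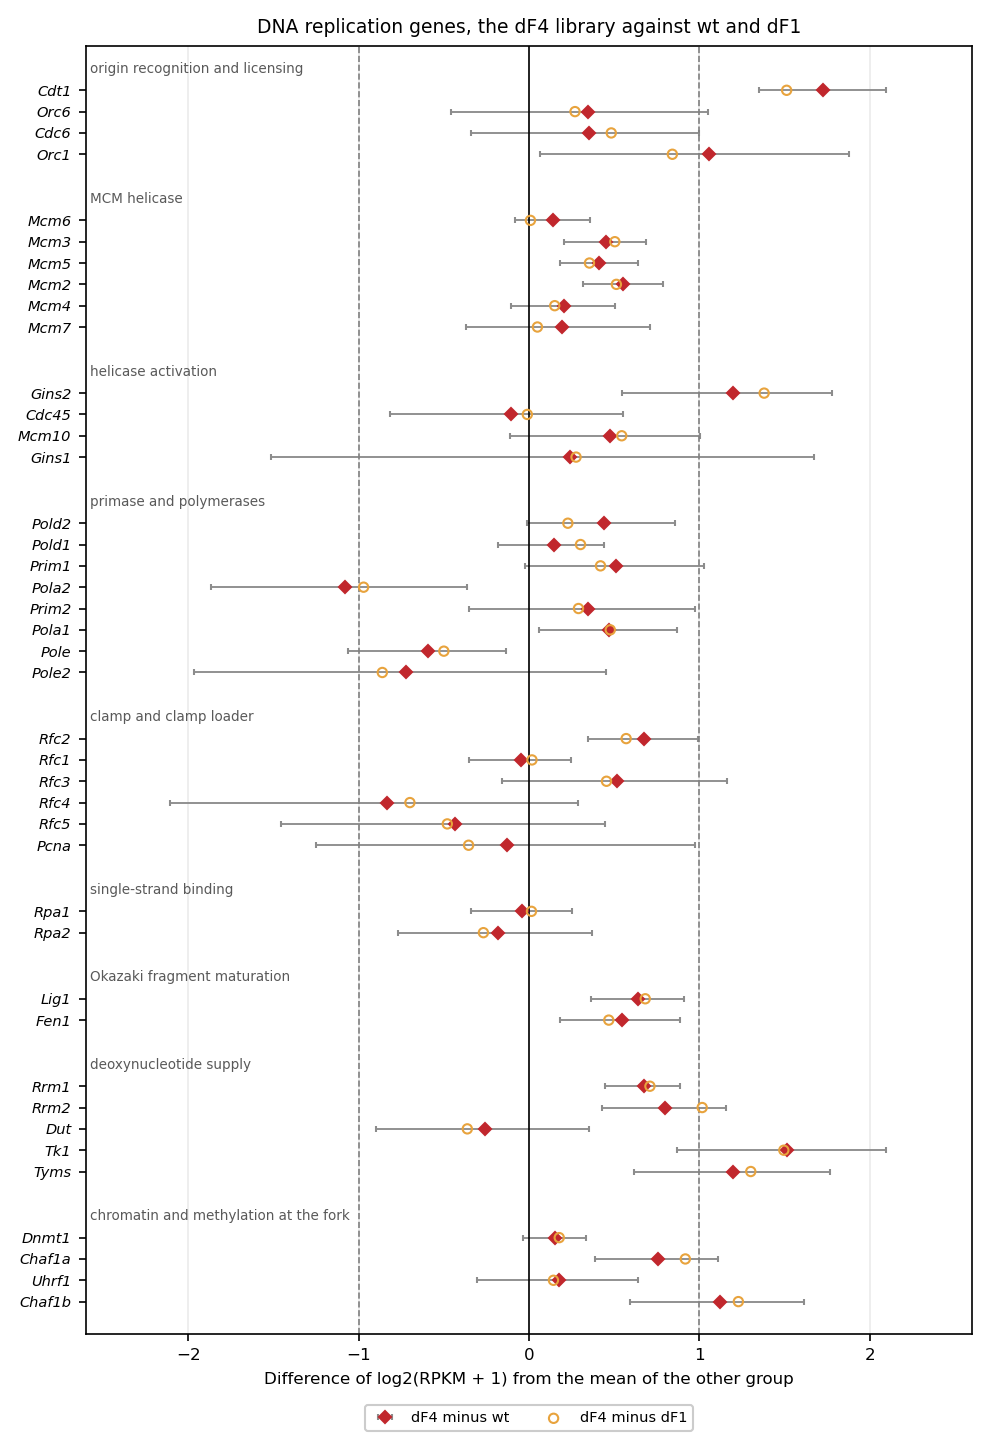
Difference of log2(RPKM + 1) between the dF4 library and the mean of wt (diamonds, with the exact 95% Poisson interval of the dF4 count as bars) or the mean of dF1 (open circles) for each replication gene. Dashed lines mark 1 log2 unit. Cdt1 at 1.73 and Tk1 at 1.51 lie farthest to the right and Pola2 at -1.08 farthest to the left.

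Of the licensing factors, Cdt1, which brings the MCM helicase to the origin, differed most in dF4. Cdt1 was at 44.0 RPKM in dF4, at 12.1 and 18 RPKM in dF1 and at 13.1 and 12.1 RPKM in wt. The dF4 value, from 58 reads (33.6 to 57.2 RPKM), was 3.49-fold the wt mean, and on the log2(RPKM + 1) scale it was 1.73 above wt and 1.51 above dF1. The dF1 replicates were 0.54 apart, which is too wide for Cdt1 to be counted against dF1. The ratio of Cdt1 to Mcm2 was 0.601 in dF4, 0.253 and 0.331 in dF1 and 0.256 and 0.253 in wt. Orc1, the largest subunit of the origin recognition complex, was at 4.1 RPKM in dF4, at 1.7 and 2.0 RPKM in dF1 and at 1.5 and 1.4 RPKM in wt. The groups did not overlap for Orc1, but its dF4 value rests on 7 reads (1.56 to 7.99 RPKM), and the dF1 minus wt difference of 0.22 (SE 0.15) had an adjusted p of 0.819 in limma. Cdc6, an ATPase of the loading complex, lay between 3.1 and 5.2 RPKM over all libraries, and Orc6, the smallest subunit of the complex, between 10.8 and 15.4 RPKM.

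The 6 MCM subunits assemble into 1 ring in equal numbers, but their transcripts did not have equal levels. Mcm6 was at 95.9 RPKM in dF4, at 90.6 and 100.3 RPKM in dF1 and at 96.4 and 78.4 RPKM in wt. Mcm7 was at 18.8 RPKM in dF4, at 17.3 and 19 RPKM in dF1 and at 17.7 and 15.0 RPKM in wt. Mcm6 was thus 5.10-fold Mcm7 in dF4, 5.24-fold and 5.28-fold in dF1 and 5.45-fold and 5.23-fold in wt, a ratio that the copies of Mcm7 make uncertain. Every library had the order Mcm6 first, then Mcm3 and Mcm5, then Mcm2, Mcm4 and Mcm7, with Mcm5 above Mcm3 in both dF1 libraries and below it in the others. Between dF1 and wt the differences of the 6 subunits lay between -0.049 (Mcm3) and 0.15 (Mcm7), and the groups overlapped for all 6. In dF4, Mcm2 had the largest difference of the 6, at 73.2 RPKM in dF4, 47.9 and 54.3 RPKM in dF1 and 51.2 and 47.9 RPKM in wt. That is 0.55 above wt, with a counting interval of 0.32 to 0.79. Mcm3 (0.45 above wt) and Mcm5 (0.41 above wt) also had counting intervals above the other 4 libraries, whereas Mcm4 (0.21), Mcm7 (0.19) and Mcm6 (0.14) did not.

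Among the factors that switch the helicase on, the GINS subunit Gins2 stood out in dF4. Gins2 was at 35.4 RPKM in dF4, at 11.3 and 14.9 RPKM in dF1 and at 15.4 and 14.4 RPKM in wt. It was counted as higher against both, with differences of 1.20 from wt (counting interval 0.54 to 1.78, from 22 reads) and 1.38 from dF1, and in dF1 it was -0.18 from wt (SE 0.17, adjusted p = 0.856 in limma). Its partner Gins1 was at 7.8 RPKM in dF4, at 5.0 and 7.8 RPKM in dF1 and at 6.0 and 6.9 RPKM in wt, and the groups overlapped. Cdc45, the third component of the active helicase, was at 15.9 RPKM in dF4, at 14.0 and 18.3 RPKM in dF1 and at 17.3 and 17.0 RPKM in wt, again with overlap. Mcm10, a scaffold needed to start unwinding, was at 11.5 RPKM in dF4 and between 6.9 and 8.3 RPKM in the other 4 libraries. All 4 genes were lower in dF1 than in wt in mean, by 0.033 to 0.18 on the log2 scale, and none passed the test.

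Of the 7 genes below the other 4 libraries in dF4, polymerase subunits made up 3 (Pola2, Pole and Pole2), and the others were Rfc4, Rfc5, Rpa2 and Dut. Those 3 are 37.5% of the 8 primase and polymerase genes, near the 39% of all transcripts that lay below. Another 4 of the 8 (50%) lay above, where 38.6% of all transcripts did. Pola2, the accessory subunit of polymerase alpha, was at 9.0 RPKM in dF4, at 18.3 and 18.9 RPKM in dF1 and at 19.2 and 21.2 RPKM in wt. The dF4 value (13 reads, 4.81 to 15.4 RPKM) was below the other 4 and -1.08 from wt, with a counting interval of -1.87 to -0.36. Against dF1 it was -0.97, just inside the limit of the size rule. A second Pola2 transcript was not below the others, at 3.4 RPKM in dF4, at 2.1 and 3.6 RPKM in dF1 and at 2.3 and 2.4 RPKM in wt. Its mean of 2.76 RPKM is under the limit of 5 RPKM, too low to tell whether it shared the difference. The catalytic subunit Pola1 was at 14.3 RPKM in dF4, at 9.6 and 10.4 RPKM in dF1 and at 11.8 and 8.5 RPKM in wt, so that the ratio of Pola2 to Pola1 was 0.629 in dF4, 1.91 and 1.82 in dF1 and 1.63 and 2.49 in wt. Pole, the catalytic subunit of polymerase epsilon, was at 7.2 RPKM in dF4, at 9.5 and 11.8 RPKM in dF1 and at 10.8 and 12.0 RPKM in wt. Its partner Pole2 was at 3.9 RPKM in dF4, from 4 reads, and at 6.4 to 8.1 RPKM in the others. Both epsilon subunits were therefore below the other 4 libraries in dF4, but under the limit of 1 from wt. Pole was at -0.59 from wt (counting interval -1.06 to -0.13) and Pole2 at -0.72 (-1.96 to 0.45, which includes 0). The counting interval of Pole in RPKM (4.92 to 10.3) reached dF1 replicate 1.

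Polymerase delta had no member below the other 4 libraries in dF4. Pold2, its accessory subunit, was at 45.5 RPKM in dF4, at 39.0 and 38.4 RPKM in dF1 and at 31.3 and 35.5 RPKM in wt. Both dF1 libraries were above both wt libraries for Pold2, with a difference of 0.21 (SE 0.12), the lowest adjusted p of the 41 genes given above. The catalytic subunit Pold1 was at 40.6 RPKM in dF4, at 25.9 and 41.3 RPKM in dF1 and at 31.6 and 42.3 RPKM in wt, and its replicates were farther apart than those of any other member in dF1 (0.65). The primase subunits Prim1 and Prim2 were at 32.3 and 15.5 RPKM in dF4, each above the other 4 libraries, where Prim1 lay between 21.4 and 26.3 RPKM and Prim2 between 9.4 and 15.2 RPKM. The wt replicates were too far apart for Prim2 to be counted.

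The clamp loader subunits differed among themselves in dF4. Rfc2 was at 86.6 RPKM in dF4, at 58.5 and 57.5 RPKM in dF1 and at 57.0 and 50.8 RPKM in wt, and its counting interval in dF4 (68.6 to 108.1 RPKM) lay above the other 4. Rfc4 was at 6.8 RPKM in dF4, at 10.7 and 12.7 RPKM in dF1 and at 14.8 and 11.2 RPKM in wt. The ratio of Rfc2 to Rfc4, 2 subunits of the same ring, was 12.7 in dF4, 5.47 and 4.53 in dF1 and 3.85 and 4.54 in wt. The Rfc4 value in dF4 rests on 5 reads, with an interval of 2.22 to 16 RPKM that reaches the other libraries. Rfc5 was likewise below the other 4 libraries in dF4 (7.8 RPKM from 8 reads, against 9.6 to 13.2 RPKM), Rfc3 was above them (25.6 against 16.6 to 20.4 RPKM), and Rfc1, the large subunit, was within their range (31.0 against 29.1 to 33.6 RPKM). Pcna, the clamp itself, was at 7.5 RPKM in dF4, at 11.3 and 8.6 RPKM in dF1 and at 9.3 and 7.4 RPKM in wt. Its dF1 minus wt difference of 0.22 (SE 0.20, adjusted p = 0.850 in limma) was the largest of the 41, yet the groups overlapped. Pcna is known as an abundant protein, and its low RPKM is uncertain because of the copies named above.

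The subunits of the single-strand binding protein RPA had differences close to 0. Rpa1, the large subunit, was at 48.8 RPKM in dF4, at 47.7 and 48.9 RPKM in dF1 and at 57.0 and 44.1 RPKM in wt. Rpa2, the middle subunit, was at 23.3 RPKM in dF4, at 28.1 and 28.4 RPKM in dF1 and at 28.7 and 24.6 RPKM in wt. The dF1 libraries lay within the wt range for both genes, and dF4 differed from wt by -0.038 and -0.18, with counting intervals that include 0. The enzymes of Okazaki fragment maturation were both above the other 4 libraries in dF4. Lig1, the ligase that seals the fragments, was at 57.2 RPKM in dF4, at 32.9 and 37.8 RPKM in dF1 and at 35.5 and 37.1 RPKM in wt, a difference of 0.64 from wt (counting interval 0.36 to 0.91). Fen1, the nuclease that trims their flaps, was at 49.9 RPKM in dF4, at 30.7 and 41.7 RPKM in dF1 and at 34.6 and 33.2 RPKM in wt. The counting interval of Fen1 lay above both wt libraries but reached dF1 replicate 2, and its antisense neighbour cannot be separated without strand.

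Deoxynucleotide supply was the role with the largest median difference in dF4 among those with more than 2 genes at 5 RPKM or more, at 0.74 from wt and 0.86 from dF1 over 4 genes. Tk1, the thymidine kinase of dividing cells, was at 26.8 RPKM in dF4, at 7.1 and 11 RPKM in dF1 and at 8.8 and 8.7 RPKM in wt. It was 3.06-fold the wt mean, 1.51 above wt on the log2 scale with a counting interval of 0.87 to 2.09. Rrm1, the large subunit of ribonucleotide reductase, was at 69.8 RPKM in dF4, at 41.1 and 43.5 RPKM in dF1 and at 47.0 and 40.1 RPKM in wt. Its S-phase partner Rrm2 was at 47.4 RPKM in dF4, at 21.1 and 24.9 RPKM in dF1 and at 26.1 and 27.5 RPKM in wt. Rrm2 was the only gene of this role whose dF1 and wt libraries did not overlap, with a difference of -0.22 (SE 0.13, adjusted p = 0.798 in limma), and in dF4 it was 0.80 above wt and 1.02 above dF1. Tyms, which makes thymidylate, was at 9.6 RPKM in dF4, at 3.3 RPKM in both dF1 libraries and at 4.2 and 3.1 RPKM in wt. It lay 1.20 above wt on the log2 scale but had a mean under 5 RPKM, and 29.1% of its length has a close copy. Dut, which removes dUTP, went the other way in position, at 14.6 RPKM in dF4, 18.8 and 19.3 RPKM in dF1 and 19.9 and 15.7 RPKM in wt.

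Of the factors that restore chromatin and methylation behind the fork, both large subunits of the histone chaperone CAF-1 were higher in dF4. Chaf1b was at 26.9 RPKM in dF4, at 9.9 and 12.0 RPKM in dF1 and at 11 and 12.7 RPKM in wt, with differences of 1.12 from wt and 1.23 from dF1. Chaf1a was at 31.3 RPKM in dF4, at 16.3 and 15.9 RPKM in dF1 and at 17.3 and 18.9 RPKM in wt, with differences of 0.76 and 0.92. Chaf1a was also below both wt libraries in both dF1 libraries, at -0.16 (SE 0.12, adjusted p = 0.835 in limma). Dnmt1, the maintenance DNA methyltransferase, was at 73.2 RPKM in dF4, at 62.2 and 67.1 RPKM in dF1 and at 64.4 and 67.2 RPKM in wt. It had the most reads of the 41 in dF4, and its counting interval (64.2 to 83.2 RPKM) reached the other libraries. Uhrf1, which guides Dnmt1 to hemimethylated DNA, was at 17.0 RPKM in dF4 and between 14.0 and 16.7 RPKM in the others.

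Other genes of the same processes served as a comparison. Of 35 other replication factors tested, 10 were higher and 25 lower in dF1, with a median of -0.10, and none passed limma's test. Among those averaging 5 RPKM or more, the largest dF1 difference was that of Clspn, an adaptor of the replication checkpoint, at 19.7 RPKM in dF4, 8.6 and 11.9 RPKM in dF1 and 12.2 and 14.6 RPKM in wt (-0.37, adjusted p = 0.771 in limma). In dF4, 20 of 32 lay above the other 4 libraries and 6 below, where 38.6% and 39% of all transcripts did, with a median of 0.35 from wt, equal to 2 decimals to that of the 38 genes above. Of 30 that could be counted against wt, 3 were higher, where 7.75% of transcripts were, and 0 lower, where 10.4% were. The first was Rnaseh2c, a subunit of the RNase that removes ribonucleotides, at 37.9 RPKM in dF4 against 8.2 and 10.3 RPKM in wt. Dna2, a nuclease of long flaps, was at 13 against 3.4 and 3.5 RPKM. With 2.4 and 3.8 RPKM in dF1, Dna2 averaged 5.22 RPKM and passed the limit of 5 RPKM only through dF4. The last was Pole3, a histone-fold subunit of polymerase epsilon, at 36.7 against 14.4 and 17.5 RPKM. Pole3 lay above wt in the library in which Pole and Pole2 lay below it, though the counting interval of Pole2 reached wt.

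Nucleotide synthesis and histone supply outside the 41 genes gave smaller differences in dF4. Of 17 further genes of nucleotide synthesis, 12 were higher and 5 lower in dF1 (median 0.091), with the largest differences in Nme1 (0.39, adjusted p = 0.683 in limma) and Cad (0.37, adjusted p = 0.694). Nme1, a nucleoside diphosphate kinase, was at 67.5 RPKM in dF4, at 59.9 and 61.8 RPKM in dF1 and at 51.6 and 41.4 RPKM in wt. In dF4, 9 of 14 lay above the other 4 libraries and 2 below (median 0.26 from wt), where 38.6% and 39% of all transcripts did. All 14 could be counted by size against wt, and none was higher or lower, where 7.75% and 10.4% of transcripts were. Of 11 further genes of chromatin and histone supply, 7 were higher and 4 lower in dF1 (median 0.13), and Cdca7, a cofactor of chromatin remodelling, was at 10.6 RPKM in dF4, 8.7 and 10 RPKM in dF1 and 6.4 and 5.2 RPKM in wt (0.61 in dF1 minus wt, adjusted p = 0.566 in limma). In dF4, 5 of the 11 lay above the other libraries and 2 below (median 0.17), near the 38.6% of all transcripts above and under the 39% below.

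Regulators of the G1 to S transition differed from one another in dF4, around a median of 0.19 from wt. E2f2, an activating E2F, was at 63.4 RPKM in dF4, at 9.8 and 12.0 RPKM in dF1 and at 12.2 and 12.7 RPKM in wt. Tfdp2, an E2F partner, was at 16.8 RPKM in dF4, at 5.3 and 5.7 RPKM in dF1 and at 5.7 and 4.6 RPKM in wt. Cyclin D1 (Ccnd1) was at 6.6 RPKM in dF4, at 120.4 and 149.3 RPKM in dF1 and at 123.4 and 139.3 RPKM in wt, a difference of -4.12 between dF4 and wt. Of the 25 regulators with a mean of at least 5 RPKM, 13 lay above the other 4 libraries in dF4 (38.6% of all transcripts did) and 2 below (39% did). By size, 23 could be counted against wt. Of these, 3 were higher (E2f2, Tfdp2 and the phosphatase gene Cdc25a), where 7.75% of transcripts were, and 1 was lower (Ccnd1), where 10.4% were. Between dF1 and wt, 14 of 26 tested were higher and 12 lower (median 0.032), and none passed limma's test.

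Mitosis genes, which mark the end of the same cycle, were lower in dF1 more often than higher. Of 24 mitosis genes, 2 were higher and 22 lower in dF1, with a median of -0.27, and 12 of the 24 had both dF1 libraries below both wt libraries, against 3 of the 41 replication genes and 17.9% of all transcripts. None of the 24 passed limma's test, and the difference between the 2 lists was not tested. Libraries of 1 genotype also differed: in dF1, replicate 2 was higher than replicate 1 for 22 of the 24 mitosis genes, with a median of 0.32. In wt, replicate 2 was lower for 20 of them, with a median of -0.20. The proliferation marker Mki67 was at 146.0 RPKM in dF4, at 48.0 and 54.3 RPKM in dF1 and at 65.2 and 51.1 RPKM in wt, and Aurka, a spindle kinase, at 33.3 RPKM in dF4, 9.5 and 12.0 RPKM in dF1 and 15.7 and 13.4 RPKM in wt. In dF4, 21 of 23 mitosis genes lay above the other 4 libraries and 0 below, where 38.6% and 39% of all transcripts did, with a median of 0.85 from wt. Of 21 that could be counted by size against wt, 6 were higher, where 7.75% of transcripts were, and 0 lower, where 10.4% were. The replication genes had a median of 0.35 and 7 members below all other libraries.

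**Figure D4:**
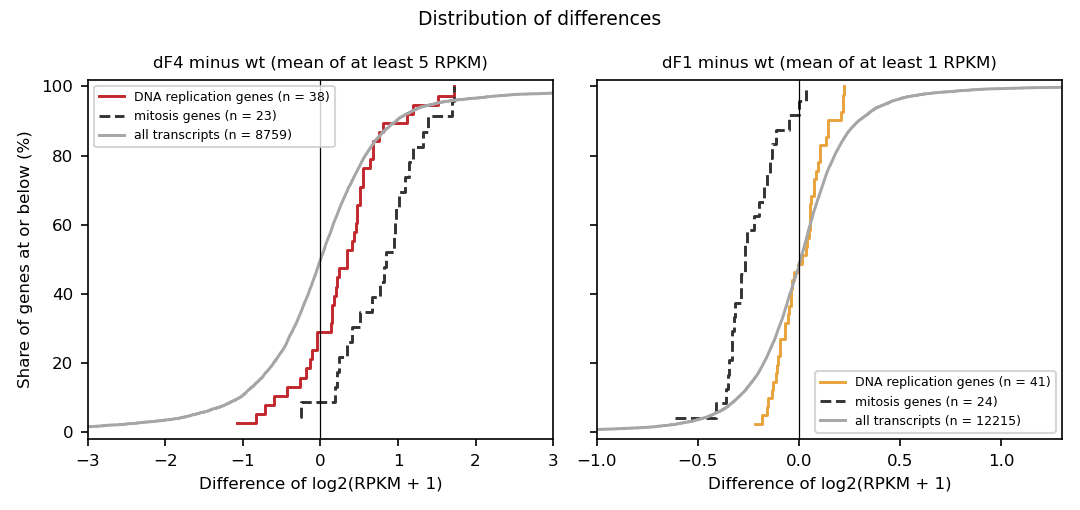
Cumulative share of genes (%) at or below a given difference of log2(RPKM + 1), for dF4 minus wt (left) and dF1 minus wt (right), for the replication genes (coloured), mitosis genes (dashed) and all transcripts (grey). On the left the replication genes lie right of all transcripts over most of the range (medians 0.35 and 0.0032), and on the right they rise more steeply than all transcripts around 0.

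**Figure D5:**
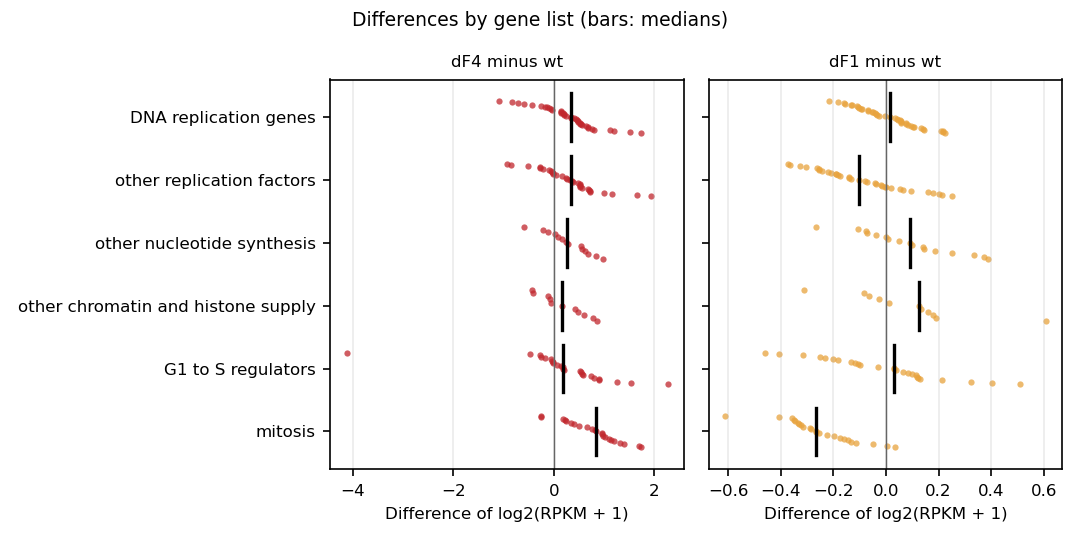
Difference of log2(RPKM + 1) for each gene (points) and its median (bars) in 6 gene lists, for dF4 minus wt (left, average of 5 RPKM or more) and dF1 minus wt (right, average of 1 RPKM or more). Replication genes and other replication factors have a median of 0.35 in dF4, mitosis genes 0.85, and the point at -4.12 is Ccnd1.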

How the data were processed

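Per the labels' protocols, mRNA was enriched from total RNA and libraries were made with Illumina TruSeq. The deposited table gives RPKM per RefSeq transcript to 1 decimal, per the file headers. TopHat, bedtools and mm9 are named, without versions or settings, in the submitters' processing notes. The 1 line without a gene was left out.

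Differences were computed on log2(RPKM + 1), which understates the change of low genes. The 2 dF1 and 2 wt libraries were compared by limma 3.58.1 (R 4.3.3, trended eBayes, two-sided) over transcripts averaging 1 RPKM or more across all libraries, at a Benjamini-Hochberg adjusted p of 0.05, and the dF4 library, with no replicate, was described by size. In dF4, 81.3% of 3868 low values were whole multiples (within 0.1 read) of 1.68 RPM, which gives its reads. The step was not resolved elsewhere. BLAST 2.17.0 found copies. Genes with values in every library are those past a rule and, by role, the highest and the most different; Gins1, Cdc45, Pola1, Pold1, Pole, Tyms, Dut and Mki67 were added after their values were seen. The members and lists were chosen with earlier results of these data known.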

Additional observations from a re-analysis of the deposited data

How the results depend on the processing

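Between dF1 and wt, 0 replication genes passed the test under every alternative run (other pseudocounts, filters and normalizations, robust eBayes, a replicate block, each library left out), while the count over all transcripts was 245 with no filter, 25 with a filter at a mean of 5 RPKM and 33 with robust eBayes, against 0. The median of the replication genes was between -0.082 and 0.089 when each library was left out, and 39 of 530 combinations of gene and alternative had the other sign, all without 1 library and none past the test. The replicate numbers are not tied to a shared mouse or batch by the labels. Deviations of same-numbered libraries had a correlation of 0.305 over all transcripts and 0.418 over the 41 replication genes, from 2 pairs. With a replicate block 0 transcripts passed, and the median of the replication genes stayed at 0.016. For dF4 against wt, a pseudocount of 5 gave 533 transcripts lower, 0 replication genes lower and a median of 0.27. Median centring gave a median of 0.28. A filter at a mean of 1 RPKM gave 1289 transcripts higher and 1306 lower, and a limit of 0.5 gave 1652 and 1853, with 13 replication genes higher and 4 lower. Leaving out a wt library, which also drops the limit on the distance between the pair, gave 769 to 992 transcripts higher, 1 to 2 replication genes lower and medians of 0.29 to 0.39. Taking the second transcript where a gene has more than 1 is no check on the size rule, since all of these averaged under 5 RPKM. Those genes, Pola2 among them, dropped out. Over the 30 genes left 0 were lower, and the median was 0.45. For dF4 against dF1, 1 replication gene was lower with a pseudocount of 0.1 or with median centring, and 544 transcripts were lower with a pseudocount of 5. A filter at 1 RPKM gave 1299 higher and 1331 lower. A limit of 0.5 gave 1584 and 1976, with 10 replication genes higher and 3 lower. Leaving out a dF1 library, likewise without that limit, gave 723 to 916 transcripts and 4 to 5 replication genes higher. The causes were not tested. Counting error limits the dF4 values, since the replication genes had a median of 31 reads there.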
